A study of Mus musculus with 12 samples.

Results

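Mos and Mapk1ip1, 2 genes of the MAP kinase pathway of oocyte meiosis, were followed across mature mouse oocytes with and without Dicer, the ribonuclease from which microRNAs and endogenous small interfering RNAs arise. They are 2 of the 311 genes that could be named among the 33012 gene probes of the array, and each was read by a single probe, number 462205 for Mos and 380040 for Mapk1ip1. Both were picked because earlier results of these same data placed the knockout and wild-type arrays apart for them. The difference between the genotypes is therefore described for these 2 genes and is not tested. The study used 12 arrays with 1 colour each, 6 labelled as Dicer knockout and 6 as Dicer wild type, all from mature oocytes. The labels describe the material as a single cell, a mouse oocyte, and name no strain, female, age, Dicer allele or Cre driver; these were not used here. If an array held RNA of more than 1 oocyte, more transcript per oocyte and more oocytes cannot be told apart, and neither can the amount of RNA recovered and amplified from each. Whether the arrays stand for separate females is not known here either.

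Mos is a serine/threonine kinase of germ cells. During meiotic maturation it phosphorylates the MAP kinase kinases, which in turn activate MAP kinases. This cascade holds the mature egg in metaphase II until fertilization, and mouse oocytes without Mos leave that arrest spontaneously. Mos mRNA is stored in the growing oocyte and its translation is switched on at maturation by lengthening of its poly(A) tail. Mapk1ip1, listed in RefSeq under the synonym MISS, is not a kinase. It is a MAP kinase-interacting protein that was described in mouse oocytes, where it is needed for an intact metaphase II spindle.

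The tested gene probes were brighter on the knockout arrays as a group, which bears on every level below. The median signal of the 6088 tested probes ran from 2733 to 6730 intensity units on the knockout arrays and from 1068 to 2579 on the wild-type arrays. A probe with a signal-over-noise score of 3 or more is called above background here, and it was tested if at least 6 of the 12 arrays reached that score. On the deposited signals the median knockout minus wild-type difference of those probes was 1.39 on the log2 scale, against 0.27 over all gene probes. Hybridization control spots averaged 15.33 to 15.61 on the knockout arrays and 15.10 to 15.77 on the wild-type arrays (log2). After quantile normalization, which gives each array the same distribution of signals, the median difference of the tested probes was 0.18. The part of the brightness difference in the results for Mos and Mapk1ip1 was not tested, so levels are given as deposited and relative to the rest of the array.

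The Mos signal was high on all knockout arrays and low on all wild-type arrays. As deposited, it was 24224, 10222, 45688, 26180, 42317 and 12231 intensity units on knockout arrays 1 to 6. On wild-type arrays 1 to 6 it was 265, 1787, 791, 1242, 1206 and 625 units. The groups did not overlap, and the dimmest knockout array was 5.72-fold brighter than the brightest wild-type array. The mean was 26810 ± 14776 units in knockout and 986 ± 537 in wild-type oocytes (SD, n = 6 each). The arrays within a group differed by up to 4.47-fold in the knockout and 6.73-fold in the wild type, so the spread within either group was wide.

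Mos was well measured on the knockout arrays and weakly on the wild-type arrays. Its signal-over-noise score was between 28.5 and 62.2 in the knockout. In the wild type it was 1.11, 7.92, 5.54, 6.55, 8.73 and 3.23 on arrays 1 to 6, which put 5 of 6 above background. Wild-type array 6 passed the limit of 3 narrowly and wild-type array 1 fell short of it. The scanner software's own error for the single spot, as a coefficient of variation, was 4% to 7% on the knockout arrays, 12% to 31% on wild-type arrays 2 to 6 and 90% on wild-type array 1. Between knockout arrays the coefficient of variation of the deposited signal was 55.1%, which also holds the arrays' differences in brightness.

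After quantile normalization the knockout arrays drew closer together and the gap between the groups narrowed. The log2 signal of Mos was 14.00, 13.14, 14.24, 13.88, 13.93 and 12.95 on knockout arrays 1 to 6. It was 8.12, 10.78, 10.36, 11.19, 11.23 and 10.29 on wild-type arrays 1 to 6. Knockout arrays 2 and 6 were the lowest of their group, still above each wild-type array, and wild-type array 1 stood alone at the bottom. The means were 13.69 ± 0.52 and 10.33 ± 1.15 (SD, n = 6 each), a difference of 3.36 ± 0.48 (SE), or 10.3-fold. Without wild-type array 1, where the Mos signal was not above background, the difference was 2.92 (7.58-fold). On the deposited signals it was 4.78 (27.5-fold) with that array and 4.45 (21.9-fold) without it.

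Among all gene probes of an array, Mos lay between the 94.7th and the 96.7th percentile of signal on the knockout arrays. On wild-type arrays 2 to 6 it lay between the 86.4th and the 90.2nd percentile, and on wild-type array 1 at the 58.8th. The ranks need no scaling between arrays, and they place the groups apart in the same direction as the signals. Because quantile normalization is built on these ranks, they are no separate check of the normalized values.

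Mapk1ip1 behaved differently: its deposited signal was alike in both groups. It was 8087, 7817, 10894, 16604, 24541 and 13053 intensity units on knockout arrays 1 to 6 and 14359, 16311, 13782, 11283, 11308 and 7327 on wild-type arrays 1 to 6. The ranges overlapped, with 4 of 6 knockout arrays inside the wild-type range and 5 of 6 wild-type arrays inside the knockout range. The means were 13499 ± 6326 and 12395 ± 3137 units (SD, n = 6 each). The log2 difference of the deposited signals was 0.05 ± 0.36 (SE), less than the spread within either group. The gene was above background on all 12 arrays, with scores from 29.3 to 67.8 and spot errors of 4% to 8%, so its level was read with similar precision in both groups.

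Relative to the rest of each array, Mapk1ip1 was lower in the knockout. The quantile-normalized log2 signal was 12.46, 12.77, 12.20, 13.22, 13.14 and 13.04 on knockout arrays 1 to 6. On wild-type arrays 1 to 6 it was 14.37, 13.93, 14.72, 14.50, 14.48 and 14.06. The groups did not overlap on this scale. The means were 12.81 ± 0.41 and 14.34 ± 0.30 (SD, n = 6 each), a difference of -1.54 ± 0.24 (SE), or 2.91-fold lower. The probe lay between the 93.0th and the 95.1st percentile of signal on the knockout arrays and between the 96.3rd and the 97.3rd on the wild-type arrays. Mapk1ip1 was therefore a bright probe in both genotypes, and its relative position differed by -2.55 percentile points on average.

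**Figure D1:**
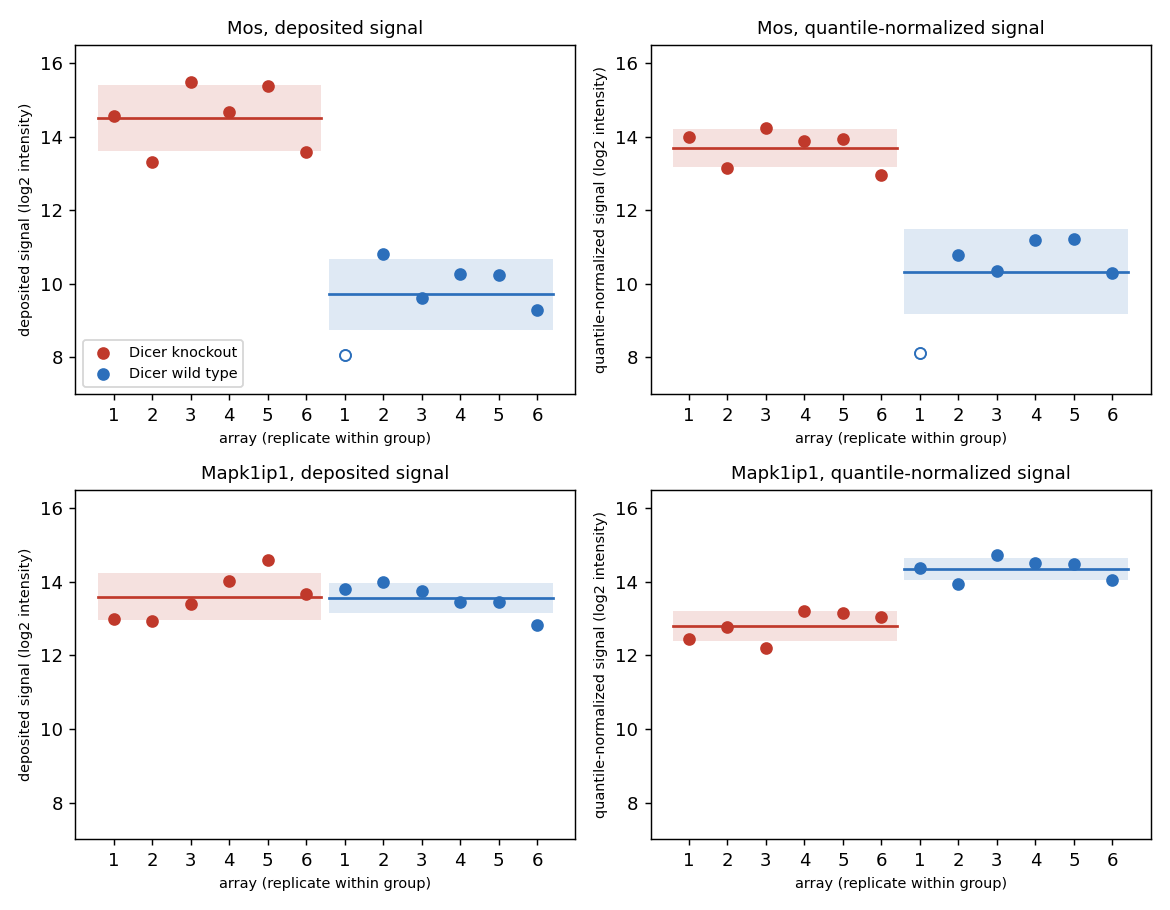
Log2 signal of Mos (top) and Mapk1ip1 (bottom) on each array, as deposited (left) and after quantile normalization (right); points are arrays, lines are group means, bands are 1 SD and the open point is not above background. Mos lies higher on the knockout arrays on both scales, while Mapk1ip1 overlaps between groups as deposited and is lower in the knockout only after quantile normalization.

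How large each difference was depended on the scaling, more so for Mapk1ip1 than for Mos. Under quantile normalization and 11 other ways of scaling or reading the signal, the Mos difference ran from 3.17 to 5.10 on the log2 scale and the groups did not overlap in any of them. The Mapk1ip1 difference ran from -1.54 to 0.36. It was -1.53 with arrays centred on their median and -1.37 with cyclic loess, and the groups were apart in both. It was -0.72 ± 0.35 (SE) with the scanner software's normalized signal, where the groups overlapped. Scaled to hybridization control spots, which are added just before hybridization, it was -0.0059 ± 0.31, and scaled to control spots of the in vitro transcription step it was 0.36 ± 0.38. In the authors' deposited table it was 0.05 ± 0.24. A lower Mapk1ip1 level in the knockout is hence a statement relative to the other probes of the array, not of its signal as read.

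Set against the median difference of the tested probes, each gene varied less between settings. For no scaling, median centring and either kind of control spot this was fixed in advance, because each shifts all probes of an array alike. Mos was 3.39 above the median in each of those settings, so they are no separate checks of one another. Mos stood 3.17 to 3.41 above that median over these 12 settings, at the 96.2nd to the 97.2nd percentile of the tested probes' differences. Mapk1ip1 stood between -1.72 and -1.27 from it, at the 8.51st to the 14.1st percentile. These places also depend on the filter. With no detection filter Mos was at the 99.3rd and Mapk1ip1 at the 1.88th percentile of the differences. With a score of 3 or more on all 12 arrays, Mapk1ip1 stood at -1.21 from the median, at the 11.7th percentile. Of the 6088 tested probes 28.1% were higher and 22.4% lower in the knockout at an adjusted p under 0.05 in limma with Benjamini-Hochberg adjustment. The groups did not overlap, as for Mos, with the knockout higher in 15.2% of them and, as for Mapk1ip1, with the knockout lower in 13.1%, together 28.3%. The shares called depend on the filter: with a score of 3 or more on all 12 arrays, 707 of 2979 probes were higher and 1206 lower. Since both genes were chosen on this contrast, nothing is read from their place among these shares.

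**Figure D2:**
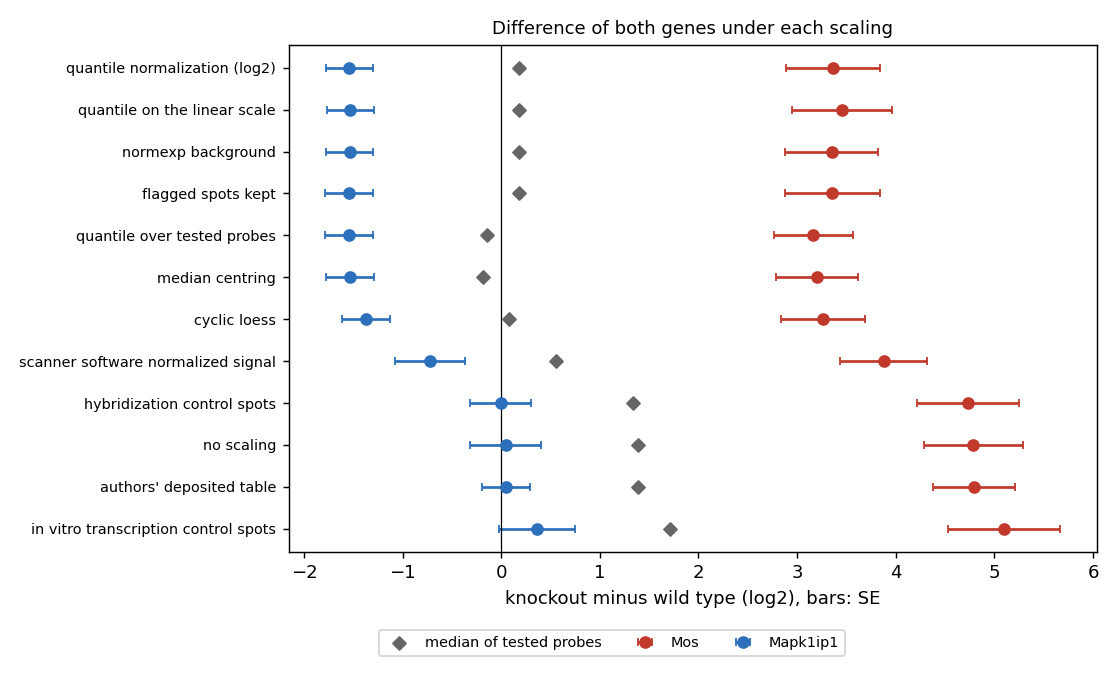
Knockout minus wild-type difference (log2, bars are SE) of Mos and Mapk1ip1 under 12 ways of scaling, with the median difference of the 6088 tested probes as diamonds. Mos stays between 3.17 and 5.10, whereas Mapk1ip1 moves from -1.54 to 0.36 as the median of all tested probes moves to the right.

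**Figure D3:**
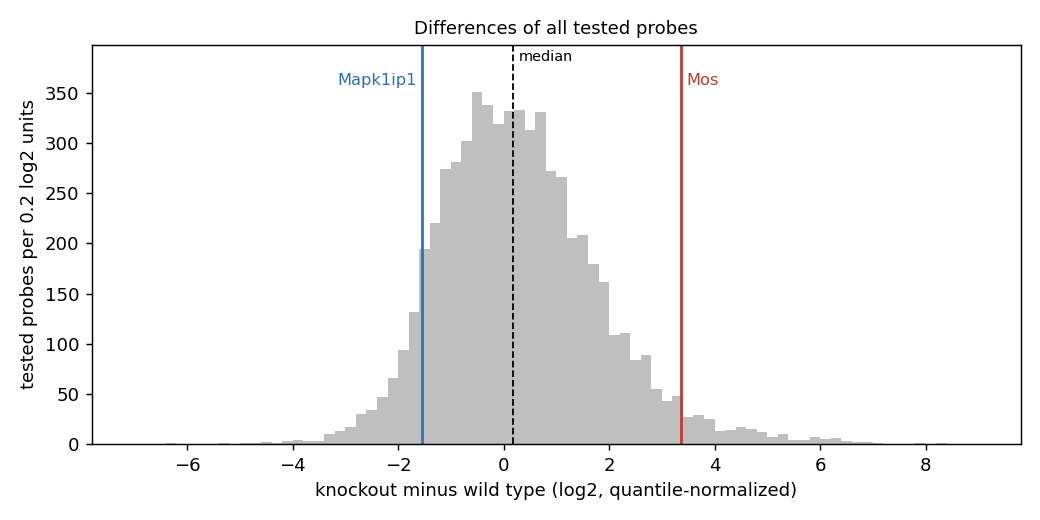
Histogram of the quantile-normalized knockout minus wild-type differences (log2) of the 6088 tested probes, in bins of 0.2, with lines at Mos, at Mapk1ip1 and at the median. Mos at 3.36 lies in the right tail and Mapk1ip1 at -1.54 on the left flank of the distribution.

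Probes of like brightness gave a local background for both genes. In the eighth of the tested probes with mean signals like that of Mos, the median difference was -0.16, with quartiles at -1.11 and 0.98. In the eighth that held Mapk1ip1 the median was -0.23, with quartiles at -1.13 and 0.75. Mos lay above the upper quartile and Mapk1ip1 below the lower quartile of probes of like brightness. Both were chosen on this contrast, so nothing is read from these places either. The spots around each gene on the array served as another background. On the deposited signals the 22 tested probes within 5 rows and columns of the Mos spot had a median difference of 1.15, and the 21 around the Mapk1ip1 spot one of 1.54, against 1.39 over all tested probes. None of the 24 spots of the 2 genes carried a flag.

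The 2 genes can be set against each other within an array, which cancels any factor that an array's spots share. The log2 signal of Mos minus that of Mapk1ip1 was expressed relative to its wild-type mean. On the deposited signals it was 5.42, 4.23, 5.91, 4.50, 4.63 and 3.75 on knockout arrays 1 to 6. On wild-type arrays 1 to 6 it was -1.92, 0.65, -0.28, 0.66, 0.61 and 0.29. Every knockout array lay above every wild-type array, by at least the distance from 0.66 to 3.75. The shift between groups was 4.74 ± 0.52 (SE), or 26.7-fold, and it was the same with median centring and with either kind of control spot, because each shifts all probes of an array alike. Under the other scalings it ran from 4.60 to 4.99. It gives an unequal difference for the 2 signals, and not which of them changed.

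Within a genotype the levels of Mos and Mapk1ip1 showed no relation that passed the test. Over the 6 knockout arrays Pearson's r of the quantile-normalized log2 signals was -0.42 (exact permutation p = 0.393, adjusted 0.922 over 6 relations) and Spearman's rho was -0.54 (exact permutation p = 0.297, adjusted 0.919). Over the 6 wild-type arrays r was 0.02 (exact permutation p = 0.961, adjusted 0.961) and rho was 0.26 (exact permutation p = 0.658, adjusted 0.919). Without the 2 arrays farthest from the median of Mapk1ip1, r was 0.71 and 0.44, so its sign in the knockout rested on those arrays. All tests were two-sided, and with 6 arrays only strong relations can pass.

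Nor did either level pass a test against the number of probes above background, which ran from 7361 to 9598 on the knockout and from 5707 to 7102 on the wild-type arrays. For Mos r was 0.37 in the knockout and 0.18 in the wild type (exact permutation p = 0.461 and 0.799, adjusted 0.922 and 0.961), and rho was 0.14 in both (exact permutation p = 0.803, adjusted 0.919). For Mapk1ip1 r was 0.08 and -0.42 (exact permutation p = 0.876 and 0.394, adjusted 0.961 and 0.922), with rho at 0.09 and -0.49 (exact permutation p = 0.919 and 0.356, adjusted 0.919). Without the 2 arrays farthest from the median number of probes, r was -0.25 and -0.91 for Mos and -0.59 and 0.18 for Mapk1ip1, the knockout value first. Its sign changed in each of these 4 relations, so none of them can be read as a trend.

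The named genes whose pattern over the 12 arrays came closest to that of Mos were found among 68 other named and tested probes. They were compared by the root-mean-square distance of their centred log2 signals. Each probe was centred over all 12 arrays, so the distance holds the genotype difference on which Mos and Mapk1ip1 were chosen. Nearness is therefore a description and is not read as a separate likeness. Pdxp, the pyridoxal phosphatase, was nearest at 0.92 log2 units. A probe of Prr18 (1.13), the vomeronasal receptor gene Vmn1r148 (1.14), the transcriptional repressor Zbtb18 (1.15) and the keratin-associated protein gene Krtap9-3 (1.18) followed, against a median distance of 1.92. Each of the 5 exceeded background on the 6 knockout arrays, whereas in the wild type Pdxp did so on 0, Vmn1r148 and Krtap9-3 on 1, Zbtb18 on 2 and Prr18 on 3 arrays. Mos was above background on 5. All 5 neighbours thus met the filter of 6 arrays by their knockout arrays alone. Their wild-type values lie in part or wholly at background, so the sizes of their differences are uncertain. These were 3.28 for Pdxp, 1.92 for Prr18, 3.91 for Vmn1r148, 1.95 for Zbtb18 and 3.04 for Krtap9-3, against 3.36 for Mos. The 3 Prr18 probes disagreed, at 1.92 for the one named and 2.18 and -0.31 for the others.

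Genes like Mapk1ip1 lay closer to it, on a distance that also grows with a gene's own spread, and were bright in both groups. Wnk4, a kinase that regulates ion transporters, was nearest at 0.30 log2 units, followed by the nucleolar GTPase Gnl2 (0.38), Eola1 (0.43), the ubiquitin ligase Wwp1 (0.45) and Tcp10b (0.47), against a median of 1.21. All 5 were above background on all 12 arrays. Their differences ran from -2.18 for Eola1 to -1.09 for Tcp10b. The distance between Mos and Mapk1ip1 themselves was 2.62, more than the median distance of either gene. It holds their opposite differences between the genotypes after quantile normalization, so it is no separate result.

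**Figure D4:**
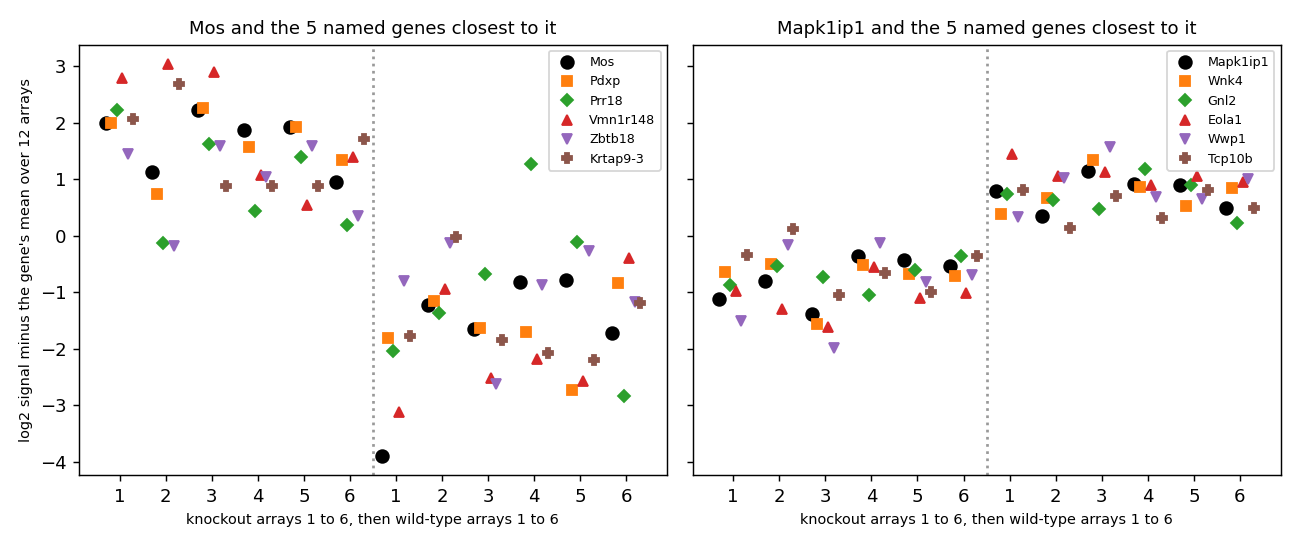
Quantile-normalized log2 signal of Mos (left) and Mapk1ip1 (right), each with its 5 closest named genes, minus each gene's mean over the 12 arrays. The genes around Mos lie at distances of 0.92 to 1.18 and those around Mapk1ip1 at 0.30 to 0.47. Distances are in log2 units and grow with a gene's own spread, which in the wild type was 1.15 (SD) for Mos and 0.30 for Mapk1ip1. They also hold the difference between the genotypes.

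Most of the pathway around the 2 genes could not be followed by name. Of 212 genes listed for the Mos cascade, spindle and MAP kinase binding proteins, metaphase II arrest, cytoplasmic polyadenylation, other MAP kinase cascades, their phosphatases and MAP kinase-responsive transcription, 6 had a named probe. Mos and Mapk1ip1 were the 2 that were tested. Of the other 4, Mapk7, the kinase known as ERK5, was above background on 1 knockout array and on 0 wild-type arrays. Mapk1ip1l, a gene named for its likeness to Mapk1ip1, stayed at background throughout, as did Jun, a MAP kinase-responsive transcription factor, and Eif4ebp1, which represses cap-dependent translation: 0 of 12 arrays passed for each. The lists of arrest genes and of MAP kinase phosphatases had 0 named probes, and no probe was paired here with Dicer1, so the knockout itself was not checked.

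The remaining lists gave the setting of the samples. Of 30 other protein kinases Wnk4 alone was tested, and it was lower in the knockout after quantile normalization (-1.54 ± 0.24 SE, adjusted p = 0.000214 in limma). As with Mapk1ip1, its difference was near 0 in the authors' deposited table, at -0.13 (adjusted p = 0.657 in limma), and with the in vitro transcription spots as the reference it was 0.23 (adjusted p = 0.547 in limma). The 4 named oocyte markers, the homeobox genes Obox1, Obox2, Obox3 and Cphx1, were above background on all 12 arrays. Of these 4, Cphx1 was higher in the knockout (0.98 ± 0.22 SE, adjusted p = 0.00277 in limma), while Obox1, Obox2 and Obox3 stood at -0.07, 1.004 and 0.46 and did not pass (adjusted p = 0.794, 0.0605 and 0.260 in limma). With median centring Cphx1 stood at 0.61 and did not pass (adjusted p = 0.0684 in limma) and Obox1 was lower at -1.13. In the authors' deposited table all 4 were higher, Obox1 by 0.49, but there the median tested probe was itself 1.39 higher. Over all lists 2 of 5 tested genes other than Mos and Mapk1ip1 passed, 1 in each direction. Of all tested probes 50.5% passed, and of the 68 named genes tested, Mos and Mapk1ip1 included, 51.5% did. Of 27 markers of cumulus and granulosa cells the one with a named probe, Sfrp4, passed on 1 knockout array and on 0 wild-type arrays. Of 12 blood and immune markers Hba-a1, a haemoglobin chain, passed on 1 array of either genotype. The 10 theca and stroma markers had 0 named probes, so the share of other ovarian cells was checked by these 2 genes only.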

How the data were processed

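Total RNA of mature oocytes was extracted with Trizol and labelled with digoxigenin by a NanoAmp reverse transcription and in vitro transcription kit, per the labels' protocols. The platform was the Applied Biosystems Mouse Genome Survey Microarray (version 1.0) and its image software AB1700 (version 1.1.1), per the file headers. Each deposited scanner file lists, per spot, linear intensity with its error, an intensity that the software normalized, a score of signal over noise, and flags. The authors' deposited series table holds linear intensities, of which 93.8% came within 1% of the values that quantile normalization inside each group gave. No label or header says how that table was made.

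Flags of 5000 or more made a spot missing, and the log2 signals of 33012 probes were quantile-normalized with no offset. The fit over 6088 tested probes used limma 3.58.1 (R 4.3.3), two-sided, with Benjamini-Hochberg adjustment. SEs of Mos and Mapk1ip1 come from that fit, and the SE of Mos minus Mapk1ip1 from the SDs of both groups. The fit was tested on simulated data in which few probes changed, as many up as down, with equal scatter in both groups. Here 50.5% of tested probes passed, so that simulation does not bear on the shares called. Correlations used exact permutation of pairings, and figures matplotlib 3.10.9. Names came from RefSeq accessions (311 probes) or synonyms (6) in a table of assembly GRCm38.p6. Genes named were Mos and Mapk1ip1, the 5 named genes nearest to each, and list members with a named probe. Members and lists were chosen with earlier results of these data known. Replicate numbers follow sample order and pair nothing. P-values reflect only how far these arrays scatter, which may be technical, and the number of arrays limits the precision. The file headers are alike on all arrays, date included, and gave no batch to test.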

Additional observations from a re-analysis of the deposited data

Results flagged for a closer look

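In 5 of 22 groups of 6 values one array lay far from the rest, where chance flags about 1 in 20 independent groups. These groups are not independent, since Mos and Mapk1ip1 entered on several scales each, so the count is not compared with that rate. Wild-type array 1 was low for Mos, at a log2 signal of 8.12 while the remaining 5 wild-type arrays lay between 10.29 and 11.23. The same reading was flagged again as a percentile of signal, the 58.8th against the 86.4th to the 90.2nd. It was not flagged on the signal with no scaling. On knockout array 2 Obox1 read 20.36, below the 20.91 to 21.21 of its group. The same array read 16.17 for Obox3, below 17.34 to 18.03. Knockout array 3 was low for Wnk4, at 14.25 against 15.09 to 15.32. No array was flagged for Mapk1ip1.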

How the results depend on the processing

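The Mos difference of 3.36 was 4.78 with no scaling, 4.79 in the authors' deposited table, 4.73 with hybridization controls and 5.10 with in vitro transcription controls, and moved by less than 1 SD under the other 7 settings. Leaving out 1 array gave 2.92 to 3.58. The Mapk1ip1 difference of -1.54 was -0.72 with the scanner software's normalized signal and -0.0059 with hybridization controls, and changed sign with no scaling (0.0466), the deposited table (0.0479) and in vitro transcription controls (0.36); leaving out 1 array gave -1.63 to -1.42. In percentile ranks the differences were 12.4 and -2.55 points. Quantile normalization rests on these same ranks, so their direction is no separate check of it. The shift of Mos against Mapk1ip1 was 4.90 after quantile normalization, 4.46 to 5.08 with 1 array left out and 4.60 to 4.99 otherwise. Against 1711 probes higher and 1366 lower, no scaling gave 3539 and 107, the authors' deposited values gave 3842 and 146, hybridization controls 3591 and 135, in vitro transcription controls 4204 and 62, and the scanner software's signal 2080 and 511. Median centring gave 1393 and 1796, and quantile normalization over the tested probes 1431 and 1750. A signal-over-noise score of 3 on all 12 arrays left 707 higher and 1206 lower. Leaving out 1 array gave 1549 to 1826 higher and 1259 to 1387 lower. The 2 listed genes that passed were 4 in the deposited table, with in vitro transcription controls and without knockout array 2, and 2 to 4 with any 1 array left out. With no scaling, r of Mos with Mapk1ip1 in the knockout was 0.50 and r of Mapk1ip1 with probes above background in the wild type was 0.54. The cause of these changes was not tested. Quantile normalization of linear signals was added after the data were seen. Mos did not meet the filter on all 12 arrays. No paired analysis was possible because the labels give no replicate numbers. Mos is near the noise floor in the wild type, which limits its fold.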
